A study of Mus musculus with 2 samples.

Results

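The genes described here are 7 members of the Lin28/let-7 developmental timing network, Lin28a, Lin28b, Trim71, Hmga2, Igf2bp1, Igf2bp2 and Igf2bp3, out of 21853 protein-coding genes of the GENCODE vM21 annotation. They were chosen by name, with no threshold on a measured value, although earlier results of these data were known. The map of open chromatin came from DNase-seq. In this assay nuclei are treated with DNase I, which cuts accessible DNA most readily, and the cut ends are sequenced. The tissue was neural tube, the embryonic precursor of brain and spinal cord, taken from healthy B6NCrl mouse embryos 11.5 days old, with males and females pooled. There was 1 group with 2 biological replicates, each sequenced as 1 library, and both carry the same donor label.

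Lin28a and Lin28b are RNA-binding proteins that bind precursors of the let-7 microRNAs and block their maturation. Mature let-7 in turn represses messenger RNAs that carry its sites, including those of both Lin28 genes, so that the pair form a switch between early and late developmental states. The network was first worked out in the nematode Caenorhabditis elegans, whose lin-41 gene is the relative of Trim71, a ubiquitin ligase and RNA-binding protein. Hmga2 is a chromatin protein that binds AT-rich DNA and sustains the self-renewal of young neural stem cells. Igf2bp1, Igf2bp2 and Igf2bp3 are RNA-binding proteins that stabilise, localise and help translate their target messenger RNAs. In the early neural tube Lin28 and Trim71 are known to favour the growth of neuroepithelial progenitors, and loss of Trim71 in mice leaves the cranial neural tube open.

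Per the deposited files, each peak spans 150 bp and has the authors' score, and replicate 1 held 199653 peaks while replicate 2 held 154324. Scores were compared only within a library, as a percentile, which is the share of that library's peaks with a score at or below it. The sequencing depth is unknown, and with 1 group no test across samples was possible. Values are therefore given in each library beside the same value over all protein-coding genes. Of the markers of the labelled tissue, all 10 neural progenitor genes and all 7 neuronal genes were open at the promoter both times. Among all protein-coding genes 66.5% were open at the promoter in both libraries, so an open promoter alone tells little about cell type. Markers of other cell types were open in part, with 6 of 6 mesoderm genes, 3 of 6 endothelial, 3 of 5 neural crest, 2 of 7 erythroid, 3 of 8 germ and pluripotent cell genes, 0 of 5 liver genes and 0 of 5 myeloid genes open in both. The part of these other cells in the values below was not tested, and a peak does not tell in which cells of a mixed tissue a site is open.

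For each gene the sequence of 1 distal peak found in both libraries is shown, because the account of each gene below returns to this site. It is the peak with the best mean percentile of score over the 2 libraries. A distal peak has its centre more than 1 kb from every protein-coding transcription start site (TSS) and is assigned to the gene of the nearest one. All are read from the plus strand of the GRCm38 genome (mm10), and the positions are those of the peak in replicate 1. Capitals mark matches to any motif searched, on either strand. These were the SOX form ACAAAG, the other SOX form ACAATG, the E-box CAGCTG, the E-box form CATCTG, the E-box form CACGTG, the octamer ATGCAAAT and the homeodomain motif TAATTA. For CTCF they were the form AGGTGGCAG, the form AGGGGGCGC and the form AGGTGGCGC, the last of which was added after the sequences had been seen. The others were NF-Y with CCAATCA, Sp/Klf with GGGCGG, NFI with TTGGCA, TCF/LEF with ATCAAAG, RBPJ with GTGGGAA, GLI with TGGGTGGTC, TEAD with GGAATG and AP-1 with TGANTCA.
Lin28a, chr4:134036096-134036245: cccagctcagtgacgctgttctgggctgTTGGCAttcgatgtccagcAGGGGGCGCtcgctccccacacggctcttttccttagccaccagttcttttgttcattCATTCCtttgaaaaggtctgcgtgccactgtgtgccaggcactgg
Lin28b, chr10:45486436-45486585: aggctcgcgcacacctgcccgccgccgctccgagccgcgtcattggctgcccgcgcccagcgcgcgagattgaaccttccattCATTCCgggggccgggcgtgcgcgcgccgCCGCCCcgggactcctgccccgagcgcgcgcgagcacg
Trim71, chr9:114583916-114584065: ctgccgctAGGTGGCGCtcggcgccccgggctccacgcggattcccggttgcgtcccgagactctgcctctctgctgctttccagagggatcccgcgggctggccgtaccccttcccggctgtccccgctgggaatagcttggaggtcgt
Hmga2, chr10:120552556-120552705: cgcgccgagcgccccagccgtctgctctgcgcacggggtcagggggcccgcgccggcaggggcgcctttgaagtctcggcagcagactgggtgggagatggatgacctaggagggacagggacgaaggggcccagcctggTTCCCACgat
Igf2bp1, chr11:96007076-96007225: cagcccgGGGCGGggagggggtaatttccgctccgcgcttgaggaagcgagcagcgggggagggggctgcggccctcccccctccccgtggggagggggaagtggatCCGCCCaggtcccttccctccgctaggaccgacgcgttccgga
Igf2bp2, chr16:22123796-22123945: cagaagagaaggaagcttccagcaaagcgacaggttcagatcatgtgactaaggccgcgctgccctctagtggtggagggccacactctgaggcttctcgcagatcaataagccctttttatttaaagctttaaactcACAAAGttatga
Igf2bp3, chr6:49218016-49218165: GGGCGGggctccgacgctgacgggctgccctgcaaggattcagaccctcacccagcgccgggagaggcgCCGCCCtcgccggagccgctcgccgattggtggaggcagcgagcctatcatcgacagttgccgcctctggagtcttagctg

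In base composition the peak of Lin28b held 77.3% G and C, that of Igf2bp1 74.0%, that of Hmga2 71.3%, and those of Trim71 and Igf2bp3 70.0% each. The peak of Lin28a, at 56.7%, and that of Igf2bp2, at 47.3%, were the only ones of the 7 below 70.0%. The ratio of observed to expected CpG, which is high in CpG islands, was 1.27 in the Lin28b peak and 0.48 in that of Igf2bp2. Its median over all distal peaks was 0.25 in replicate 1 and 0.26 in replicate 2. Matches to Sp/Klf lay in the peaks of Lin28b, Igf2bp1 and Igf2bp3, and a CTCF form in those of Lin28a and Trim71. The peak of Hmga2 held an RBPJ match and that of Igf2bp2 a SOX match. A TEAD match lay in the peaks of Lin28a and Lin28b, and an NFI match in that of Lin28a. Of all distal peaks in replicate 1, 16.1% held SOX ACAAAG, 9.62% TEAD, 8.70% NFI, 6.42% Sp/Klf and 3.83% RBPJ. In replicate 2 these shares were 13.9%, 9.61%, 8.66%, 8.51% and 4.06%.

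The promoters of all 7 genes were open in both libraries. A promoter peak was one that overlapped the 500 bp to either side of a TSS of a protein-coding transcript, and 68.5% of all protein-coding genes had one in replicate 1, 67.7% in replicate 2 and 66.5% in both. An open promoter was thus common among all genes. There were 20 promoter peaks of these genes in each library. A hotspot is a broader region for which the authors gave a −log10 q-value. One lay at the promoter of all 7 in both libraries, beside 68.9% of all genes in replicate 1 and 68.1% in replicate 2. Over the gene start of each it had the highest value deposited, 100. Among all protein-coding genes 64.7% in replicate 1 and 62.5% in replicate 2 had a hotspot of that value at the promoter. The promoters of 5 genes, all but Lin28a and Lin28b, held a peak in the top 10% of the list by score in both libraries, where 51.4% of all genes did in replicate 1 and 48.6% in replicate 2.

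Promoter scores differed among the 7. Igf2bp3 had the highest score, 135 in replicate 1 and 123 in replicate 2, with percentiles of 97.7 and 97.9. Igf2bp1 reached 133 in replicate 1 and 100 in replicate 2 with a single promoter peak, at 170 bp upstream of its TSS in each library. Igf2bp2 reached 122 in replicate 1 and 102 in replicate 2. Its 5 promoter peaks in each library were spread over a pair of coding starts, at 22163299 and 22161450 on chromosome 16, and both starts were open in both libraries.

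Trim71 reached 129 in replicate 1 and 104 in replicate 2, and the same window, chr9:114564336-114564485, was best in both. Hmga2 reached 123 in replicate 1 and 84 in replicate 2. By best promoter score, Trim71 stood above 50.7% of the genes with an open promoter in replicate 1 and 45.5% in replicate 2. Hmga2 stood above 40.9% and 28.8% of them. The order of Igf2bp1, Igf2bp2, Trim71 and Hmga2 changed between the libraries, whereas Igf2bp3 was first in both.

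The Lin28 genes had the lowest promoter scores of the 7 in both libraries. Lin28a reached 101 in replicate 1 and 58 in replicate 2, above 22.8% and 16.2% of the genes with an open promoter. That best peak lay 549 bp upstream of the first TSS in replicate 1 and 529 bp upstream in replicate 2. Lin28a has 4 coding starts, and the peak within the gene at 134018096 on chromosome 4 scored 80 in replicate 1 and 48 in replicate 2. Lin28b reached 95 in replicate 1 and 36 in replicate 2, above 19.8% and 7.69% of the genes with an open promoter. In replicate 2 its only promoter peak was centred 431 bp downstream of the TSS, while replicate 1 had one at 551 bp downstream and another on the TSS itself. With a window of 200 bp in place of 500 bp, Lin28b had no promoter peak in replicate 2 and the other 6 genes kept theirs.

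**Figure D1:**
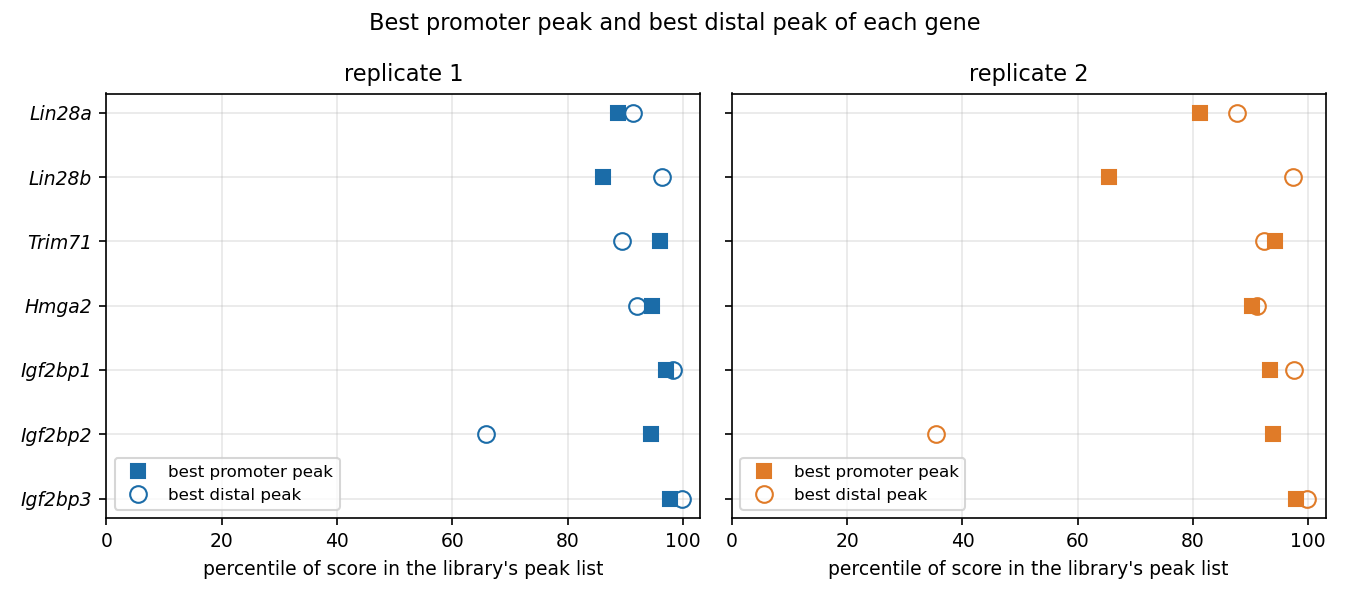
Percentile of the authors' score, within each library's own list, of the best promoter peak (squares) and the best distal peak (circles) of each gene, with replicate 1 on the left and replicate 2 on the right. Lin28b stands out at the promoter, at 86.1 in replicate 1 and 65.5 in replicate 2, while its best distal peak is at 96.4 and 97.3; Igf2bp2 has the opposite arrangement.

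Hotspots over the gene starts differed in length. That of Lin28b was 3492 bp long in replicate 1 and 1297 bp in replicate 2, the shortest of the 7 in replicate 2. That of Lin28a was 2589 bp and 2108 bp. Hmga2 and Igf2bp1 had the longest, at 4550 and 4563 bp in replicate 1 and 3777 and 3652 bp in replicate 2. Replicate 1 had the longer hotspot at every one of the 7 starts, and the median hotspot of the whole list was also longer there, at 276 bp against 235 bp in replicate 2.

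Distal peaks numbered 129 around the 7 genes in replicate 1 and 110 in replicate 2. The median was 15 per gene in replicate 1 and 12 in replicate 2, where the median protein-coding gene had 3 and 2. Genes with at least 1 distal peak made up 73.7% of all genes in replicate 1 and 69.8% in replicate 2, and all 7 were among them. In both libraries the lowest count among the 7 was above the count of 72.8% of all genes in replicate 1 and of 76.0% in replicate 2. Hmga2 had the most, 46 and 44, and Lin28a and Igf2bp2 the fewest, 8 and 7 each. Lin28b had 23 in replicate 1 and 12 in replicate 2, the widest gap between libraries, and the order of Lin28b, Trim71, Igf2bp1 and Igf2bp3 changed from one library to the other. Counts of this size were not particular to these genes. The median of the neural progenitor markers was 26 in replicate 1 and 18.5 in replicate 2, and that of the mesoderm markers 23 and 20. Neuronal markers had 15 and 9, endothelial markers 13 and 10.5, and neural crest markers 7 and 5. Germ and pluripotent cell markers had 5 and 4.5, and myeloid markers 3 and 4. Liver markers had 2 in each library and erythroid markers 1 in each. These medians take no account of how much genome lies nearest to each marker gene.

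**Figure D2:**
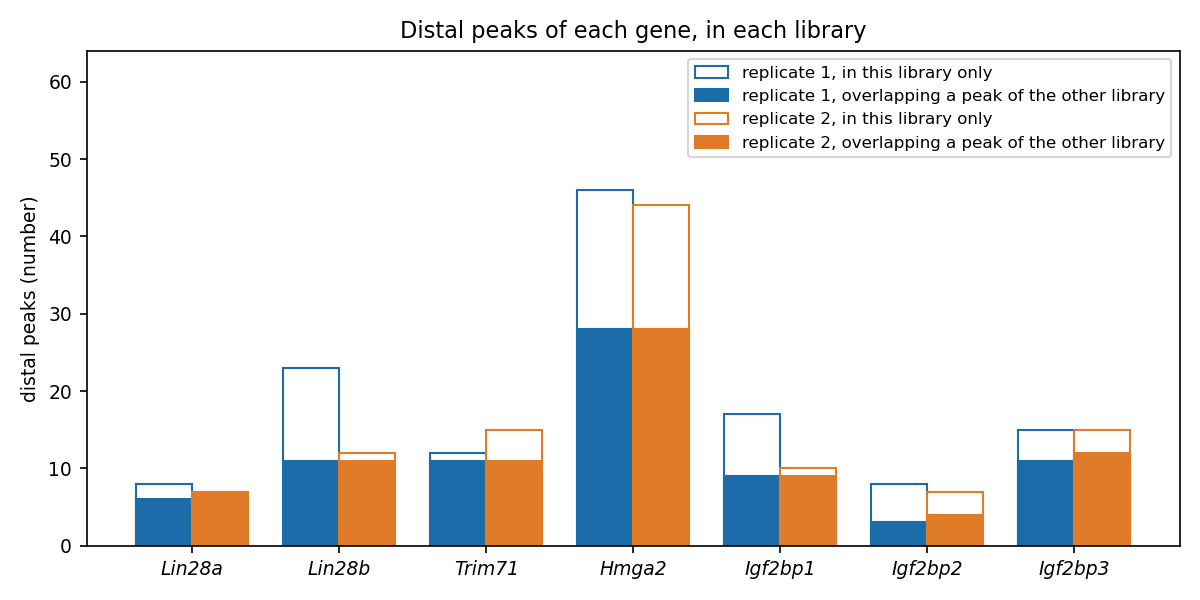
Number of distal peaks of each gene in replicate 1 (blue) and replicate 2 (orange); the filled part overlaps a peak of the other library by at least 1 bp and the open part does not. Hmga2 leads with 46 and 44, of which 28 in each library were shared, and the excess of Lin28b in replicate 1 lies in its 12 unshared peaks.

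A gene with more genome nearest to it can be assigned more peaks, so the counts are also given per length of genome. The part of this length in the counts was not tested. The territory of a gene, the stretch of genome for which one of its coding TSSs is the nearest, was 322 kb for Hmga2, 124 kb for Igf2bp2, 121 kb for Lin28b and 95.1 kb for Igf2bp3. It was 62.2 kb for Trim71, 54.8 kb for Igf2bp1 and 31.2 kb for Lin28a. Per 100 kb of territory Igf2bp1 had 31.0 peaks in replicate 1 and 18.2 in replicate 2, Lin28a 25.7 and 22.5, and Trim71 19.3 and 24.1. These 3 genes with the smallest territories stood above 91.6% or more of all genes in each library on that measure. Hmga2, with the highest count, had 14.3 and 13.7 per 100 kb. Igf2bp2 had 6.47 and 5.66 per 100 kb, the lowest of the 7, above 56.6% and 63.0% of all genes.

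Most of these peaks had a counterpart in the other library. Of the distal peaks of these genes, 79 of 129 (61.2%) in replicate 1 overlapped a peak of replicate 2, and 82 of 110 (74.5%) in replicate 2 overlapped one of replicate 1. Over all distal peaks the shares were 48.1% and 66.4%. The genes' distal peaks also scored higher, with a median of 53 against 41 over all distal peaks in replicate 1. In replicate 2 the medians were 29 and 22, and the part of score in the sharing was not tested. Shared peaks had a median score of 70 in replicate 1, where unshared ones had 36, and of 38 in replicate 2, where unshared ones had 19.5. By gene, the shared part in replicate 1 ran from 37.5% for Igf2bp2 to 91.7% for Trim71, and in replicate 2 from 57.1% for Igf2bp2 to 100% for Lin28a.

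Strong distal peaks, in the top 10% of the list by score, numbered 9 in replicate 1 and 8 in replicate 2. They made up 6.98% and 7.27% of the genes' distal peaks, where 3.80% and 2.68% of all distal peaks were that strong. In each library 5 of the 7 genes had at least 1, beside 16.1% of all genes in replicate 1 and 9.97% in replicate 2. Genes with many distal peaks have more chances of a strong one, and the part of the count in this was not tested. Lin28b, Hmga2, Igf2bp1 and Igf2bp3 had one in both libraries, Lin28a in replicate 1 only and Trim71 in replicate 2 only. Igf2bp2 had none in either. Distal was measured from coding starts only, and some strong peaks lay near non-coding starts, as described below for Lin28b and Igf2bp1. Some lay under the hotspot over the gene's own start, for Igf2bp1 in both libraries and for Hmga2 in replicate 1. The part of such peaks in the shares above was not tested.

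**Figure D3:**
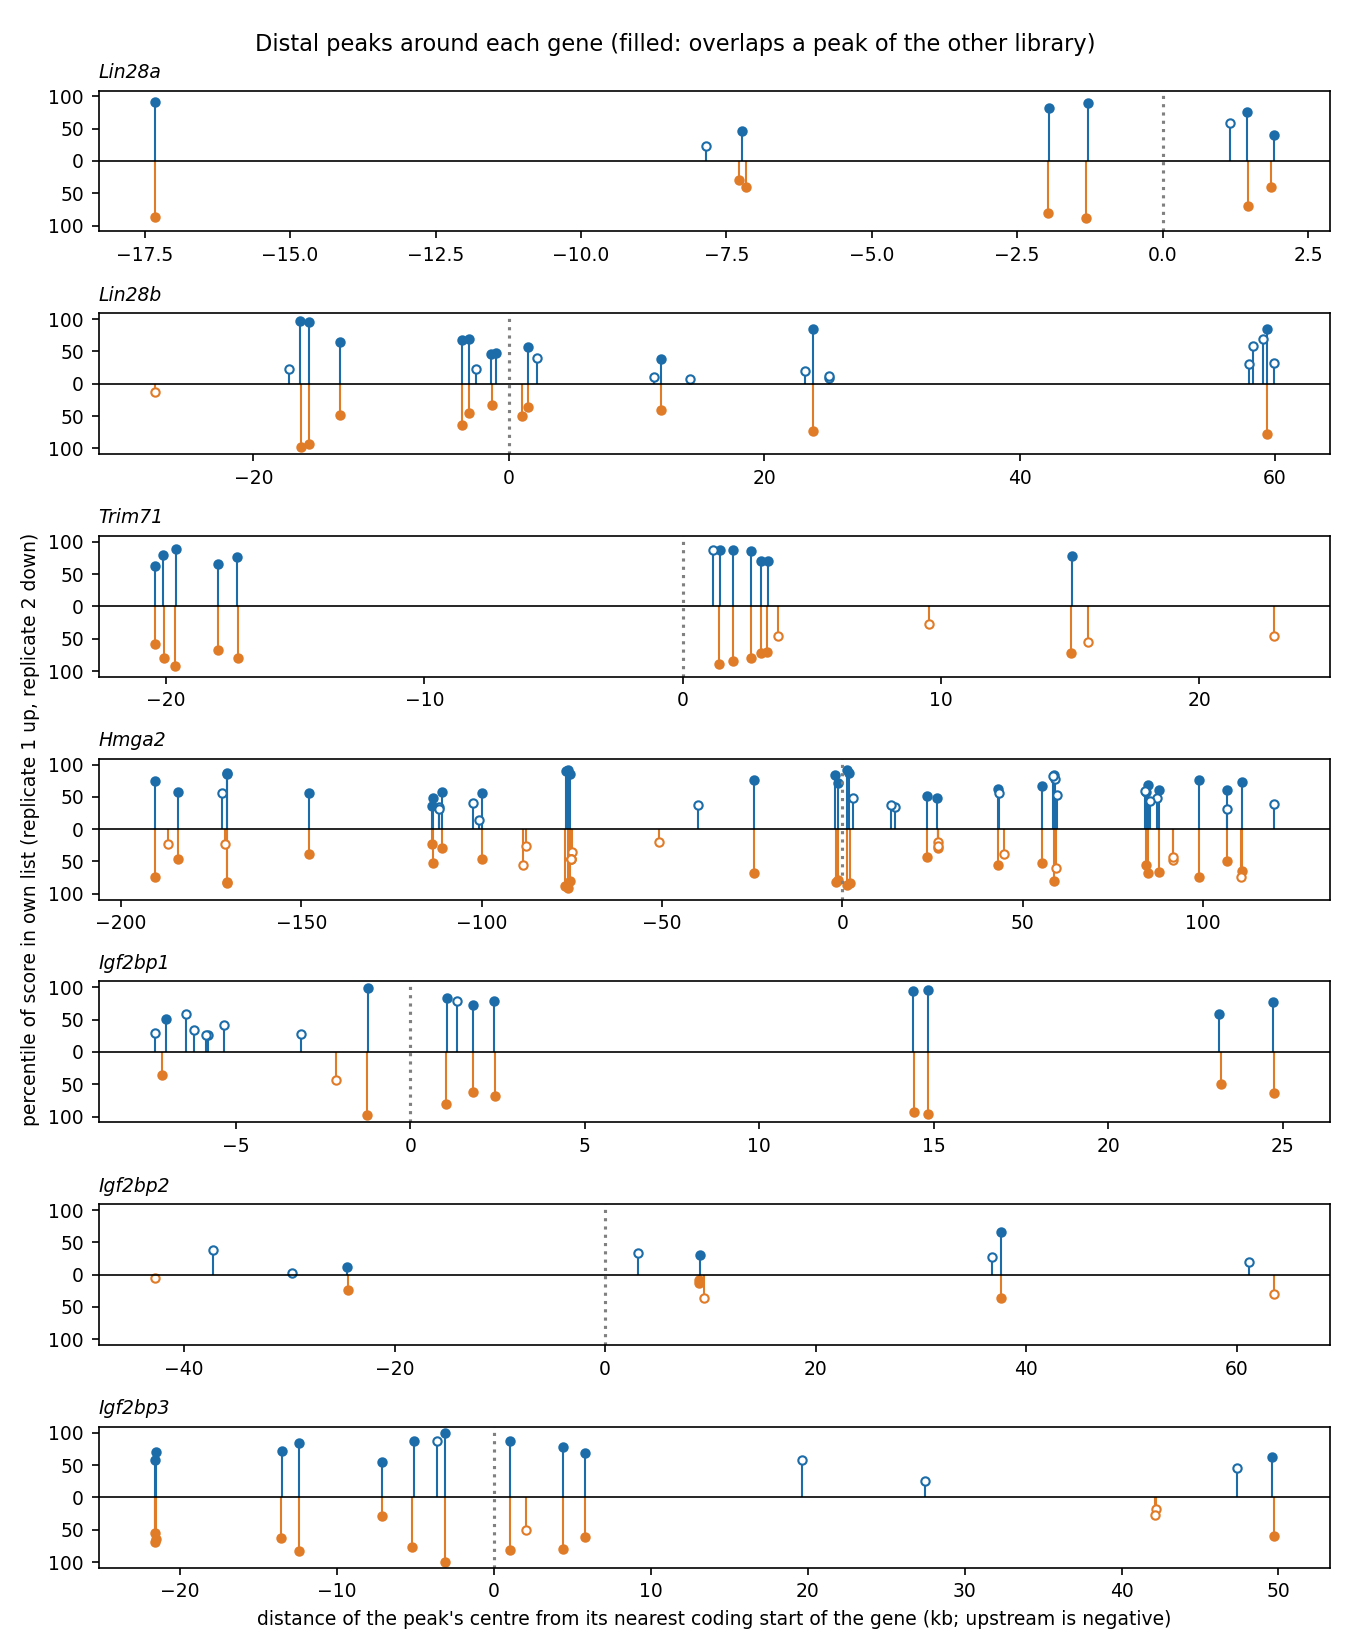
Every distal peak of each gene by the distance of its centre from the gene's nearest coding TSS in kb (horizontal, upstream negative, a scale for each gene) and by the percentile of its score, upward for replicate 1 and downward for replicate 2; filled points overlap a peak of the other library. The tallest pairs of points are those 3.13 kb upstream of Igf2bp3, 1.21 kb upstream of Igf2bp1 and 16.3 kb upstream of Lin28b.

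The highest scores of Lin28b lay well upstream of its coding start. The peak at chr10:45486436-45486585, 16.3 kb upstream, scored 130 in replicate 1 and 120 in replicate 2. A neighbour at chr10:45485776-45485925, 15.6 kb upstream, scored 126 and 101. At the coding start the best scores were 95 and 36, below both upstream peaks in each library. The upstream pair lay under 1 hotspot of 2394 bp in replicate 1 and 1696 bp in replicate 2, with a −log10 q-value of 100 in both.

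The annotation places the starts of a pair of non-coding Lin28b transcripts there. Lin28b-202 begins at 45485777, 73 bp from the centre of one peak in replicate 1 and 33 bp in replicate 2. Lin28b-203 begins at 45486395, 115 bp and 55 bp from the centre of the other. The coding transcript begins at 45470201. The RefSeq promoter window of the coding start, 300 bases that end just inside the gene, held 39.0% G and C, and only 8.38% of 32851 such windows in the RefSeq table for this build held less. The upstream peak, printed above, held 77.3%. Whether the upstream starts serve the coding messenger RNA in this tissue cannot be read from open chromatin.

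**Figure D4:**
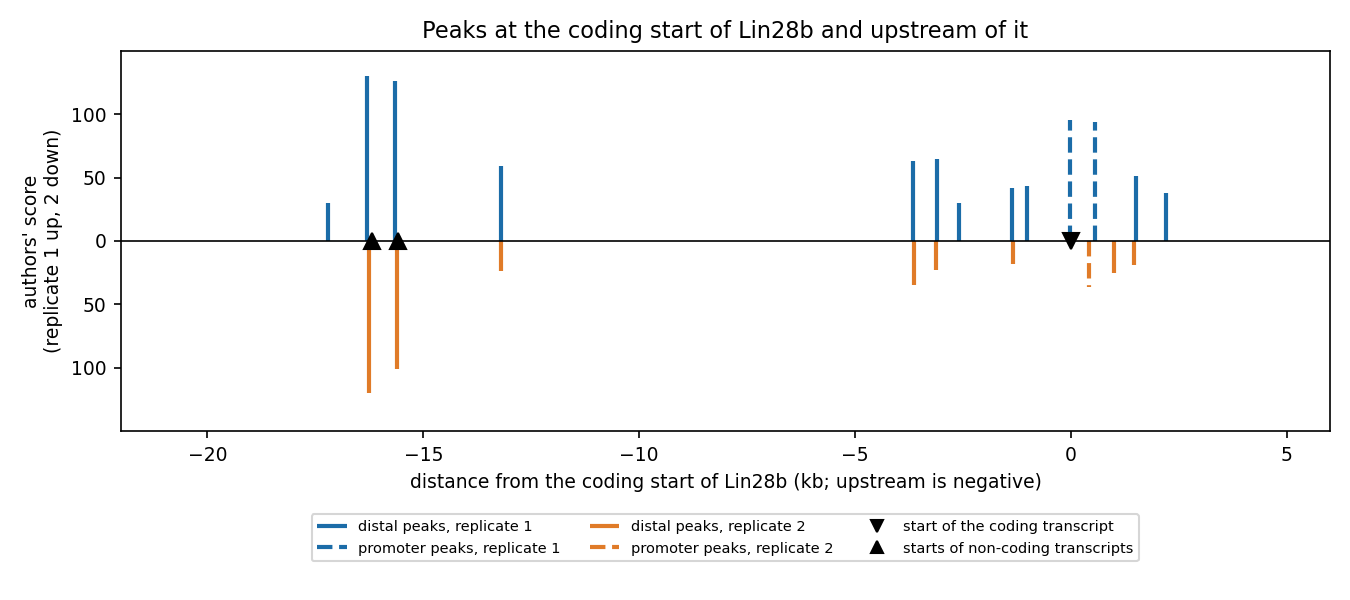
Score of each peak from 22 kb upstream to 6 kb downstream of the coding start of Lin28b, upward for replicate 1 and downward for replicate 2, with promoter peaks dashed and annotated transcript starts as triangles. The pair at 15.6 and 16.3 kb upstream, at 126 and 130 in replicate 1 and 101 and 120 in replicate 2, stands above the peaks at the coding start, at up to 95 and 36.

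Other Lin28b peaks lay in its introns. One 23.9 kb downstream of the coding start, in intron 2, scored 91 in replicate 1 and 44 in replicate 2. One 59.4 kb downstream, in intron 4, scored 92 and 51. Introns of the coding transcript held 14 of the gene's 23 distal peaks in replicate 1 and 4 of its 12 in replicate 2, so the extra peaks of replicate 1 were mostly intronic. When only the highest-scoring peaks of replicate 1 were taken, as many as replicate 2 held, Lin28b had 18 there, against 12 in replicate 2.

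Lin28a, a compact gene of 15.5 kb, had its distal peaks close by. The peak at chr4:134020056-134020205, 1.29 kb upstream, scored 102 in replicate 1 and 74 in replicate 2. Another one 1.95 kb upstream scored 86 and 58. A peak in intron 2, 1.45 kb downstream of the coding start at 134018382 within the gene, scored 76 and 41. Apart from these stood chr4:134036096-134036245, 17.3 kb upstream, with scores of 109 and 73. It was the best or nearly the best distal peak of the gene and holds a match to the CTCF form AGGGGGCGC, which 0.898% of all distal peaks held in replicate 1 and 1.10% in replicate 2. Each of the 7 distal peaks of replicate 2 overlapped one of replicate 1.

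Trim71 had clusters of peaks in 2 places. Inside the gene, exon 1 and the beginning of intron 1 held 5 shared peaks from 1.46 to 3.30 kb downstream of the TSS, with scores from 68 to 99 in replicate 1 and from 41 to 82 in replicate 2. Upstream, 5 shared peaks lay from 17.2 to 20.4 kb from the TSS. The best of them, chr9:114583916-114584065 at 19.6 kb, scored 103 in replicate 1 and 94 in replicate 2, under a hotspot of 1504 bp and 1142 bp. It holds the CTCF form AGGTGGCGC, found in 0.695% of all distal peaks in replicate 1 and 0.895% in replicate 2. That form was added to the search after the sequences had been seen, so its rarity gives this match no weight. Trim71 was the only one of the 7 with fewer distal peaks in replicate 1, at 12 against 15 in replicate 2.

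Hmga2 had open sites over the longest stretch. Its farthest distal peak lay 191 kb upstream, and 17 of 46 peaks in replicate 1 and 13 of 44 in replicate 2 lay beyond 100 kb. The strongest group was intergenic, from 75.6 to 76.7 kb upstream, where chr10:120552556-120552705 scored 112 in replicate 1 and 88 in replicate 2. Beside it chr10:120553056-120553205 scored 105 and 77, and one more, 75.6 kb upstream, scored 95 and 57. One hotspot of 2531 bp in replicate 1 and 1804 bp in replicate 2 covered the group, and it was the longest distal hotspot of the gene in both.

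Near the gene, intron 1 of Hmga2 held a peak 1.26 kb downstream of the TSS with scores of 109 in replicate 1 and 72 in replicate 2. Intron 3, the long intron of the gene, held 9 shared peaks of replicate 1, with the best at 58.8 kb, scoring 90 and 55. A pair of peaks 171 kb upstream, in an intron of the non-coding gene 4930471E19Rik, scored 98 and 93 in replicate 1 and 61 and 58 in replicate 2. Several non-coding genes lie in this territory, among them 1700006J14Rik and 9230105E05Rik within the span of Hmga2. When the nearest TSS was sought among all annotated genes instead of coding genes, 8 of the 46 peaks in replicate 1 and 6 of the 44 in replicate 2 still belonged to Hmga2. Which gene these sites act on was not measured.

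Among the Igf2bp genes, Igf2bp3 had the strongest distal peak of all 7 genes. The site chr6:49218016-49218165, intergenic and 3.13 kb upstream, scored 146 in replicate 1 and 136 in replicate 2, at percentile 99.9 and 99.8. It outscored the gene's own promoter, at 135 and 123, and lay under a hotspot of 1436 bp and 1228 bp that did not reach the gene start. A run of shared peaks continued upstream at 5.09, 7.15, 12.4, 13.5 and 21.6 kb, with scores from 49 to 96 in replicate 1 and from 17 to 61 in replicate 2. Inside the gene the best was chr6:49213836-49213985 in intron 1 of the coding transcript, 1.05 kb from the TSS, with 96 and 59. It lay 251 bp from the start of the retained-intron transcript Igf2bp3-202.

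Igf2bp1 had 3 strong distal peaks in each library. The site chr11:96007076-96007225, 1.21 kb upstream, scored 137 in replicate 1 and 121 in replicate 2, above the gene's promoter peak at 133 and 100. It lay under the same hotspot as the gene start, of 4563 bp in replicate 1 and 3652 bp in replicate 2. It was thus not apart from the open region of the promoter. The centre of this peak lay 5 bp from the annotated start of Gm37179, a transcript that the annotation lists as still to be experimentally verified. When the nearest TSS was sought among all annotated genes, 4 of the 17 distal peaks of Igf2bp1 in replicate 1 and 4 of the 10 in replicate 2 still belonged to it. In intron 2, at 14.8 and 14.4 kb from the TSS, a pair of peaks scored 125 and 118 in replicate 1 and 116 and 98 in replicate 2. The better of them, chr11:95991016-95991165, had percentiles of 95.2 and 96.5, and a hotspot of 1441 bp and 1306 bp covered both.

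Igf2bp2 had no strong site away from its starts, although its territory was the second largest of the 7. Its best distal peak, chr16:22123796-22123945 in intron 2, scored 61 in replicate 1 and 19 in replicate 2, at percentile 65.9 and 35.4. Of its shared distal peaks the next by score percentile, chr16:22152336-22152485, scored 33 and 11, below 2 of its unshared ones in each library. The median distal peak of the gene stood at percentile 28.8 in replicate 1 and 23.4 in replicate 2, the lowest of the 7 in both. Only 3 of its 8 distal peaks in replicate 1 and 4 of 7 in replicate 2 overlapped a peak of the other library. Its promoter, by contrast, was in the top 10% of both lists.

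Of the distal peaks seen in 1 library only, the 3 with the highest percentiles came from replicate 1. They were chr9:114563136-114563285 in exon 1 of Trim71 with a score of 99, chr6:49218516-49218665 upstream of Igf2bp3 with 97, and chr10:120417916-120418065 in intron 3 of Hmga2 with 86. All 3 lay inside a hotspot of replicate 2, so DNA that was open there had no 150 bp peak called on it at that position.

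Over all distal peaks of the 7 genes, the Sp/Klf motif was more frequent than in the whole list. It lay in 24 of 129 peaks (18.6%) in replicate 1 and in 20 of 110 (18.2%) in replicate 2, where 6.42% and 8.51% of all distal peaks held it. The median ratio of observed to expected CpG was 0.34 in replicate 1 and 0.38 in replicate 2, where all distal peaks had 0.25 and 0.26, and the part of base composition in the motif counts was not tested. The homeodomain motif TAATTA was in 0 of 129 and 1 of 110 peaks, beside 3.84% and 2.53% of all distal peaks. The E-box CAGCTG was in 15 of 129 and 11 of 110, beside 15.7% and 17.1%, and SOX ACAAAG in 14.7% and 13.6%, beside 16.1% and 13.9%. A match says only that these letters are in the window, and neighbouring peaks of a gene can overlap and share a match.

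Messenger RNAs of the 7 genes all carried let-7 sites in the genome sequence. The 9 mature let-7 and miR-98 sequences in the RefSeq table, from 11 genes, share the seed GAGGUAG at bases 2 to 8. For 5 of them the whole sequence is shown, with the seed in capitals, since it is the part that pairs with the sites given next.
let-7a-5p: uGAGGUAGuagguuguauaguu
let-7b-5p: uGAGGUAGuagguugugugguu
let-7g-5p: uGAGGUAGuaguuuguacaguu
let-7i-5p: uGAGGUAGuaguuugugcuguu
miR-98-5p: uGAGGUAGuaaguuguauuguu

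The seed match CTACCTC, the reverse complement of that seed, was counted in the longest annotated 3′ UTR of each gene. Hmga2, Igf2bp1, Lin28b and Trim71 each held 4, Lin28a 2, and Igf2bp2 and Igf2bp3 1 each. Of 21021 genes with a 3′ UTR, 9.02% held at least 1 and 1.08% held 2 or more, and 5 of the 7 genes here held 2 or more. Members of this network were named in part because let-7 targets them, so this count describes the choice of genes. Their 3′ UTRs were also long, from 1.78 kb for Igf2bp2 to 6.34 kb for Igf2bp1, where the median gene had 0.961 kb. Per kb, Hmga2 held 1.33 matches and Igf2bp3 0.472, where all genes together held 0.0700. The first site of each gene that is followed by A, a context that strengthens pairing with microRNA complexes, is given with 15 bases before it, in the direction of the messenger RNA and with the seed match in capitals.
Lin28a, chr4:134005189-134005211, minus strand: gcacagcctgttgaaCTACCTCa
Lin28b, chr10:45381022-45381044, minus strand: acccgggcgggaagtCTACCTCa
Trim71, chr9:114512472-114512494, minus strand: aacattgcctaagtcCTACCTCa
Hmga2, chr10:120364224-120364246, minus strand: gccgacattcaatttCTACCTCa
Igf2bp1, chr11:95961778-95961800, minus strand: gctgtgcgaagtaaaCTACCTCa
Igf2bp2, chr16:22059473-22059495, minus strand: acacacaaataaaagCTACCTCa
Igf2bp3, chr6:49086787-49086809, minus strand: tgcatttttactcaaCTACCTCa

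Peaks were also sought at the hairpins of the let-7 genes themselves, the other arm of the switch. Of 12 annotated let-7 and Mir98 genes, only Mirlet7i had a peak within 500 bp, with a score of 129 in replicate 1 and 111 in replicate 2. Among all 2202 annotated microRNA genes, 17.6% in replicate 1 and 16.0% in replicate 2 had one, so most microRNA genes lacked one. Some hairpins lie close together, such as Mirlet7a-1, Mirlet7f-1 and Mirlet7d on chromosome 13, so the 12 are not separate sites. The nearest peak to Mirlet7b lay 2107 bp away in both libraries, with scores of 87 and 64. That nearest to Mirlet7e lay 822 bp away in replicate 1, scoring 63, and 1642 bp away in replicate 2, scoring 94. MicroRNA precursors are often cut from long transcripts that begin far from the hairpin, and those starts were not located here.

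Genes that make, destroy or carry let-7 were all open. Of the 20 annotated genes of a let-7 pathway list, 20 had a promoter peak in both libraries, beside 66.5% of all protein-coding genes. Their median was 3 distal peaks in each library, where the median of all genes was 3 in replicate 1 and 2 in replicate 2. Dicer1, the nuclease that cuts the precursor hairpin, had 22 distal peaks in replicate 1 and 30 in replicate 2. Tut4 and Tut7, the uridylyl transferases that Lin28a recruits to let-7 precursors, had 2 and 18 in replicate 1 and 9 and 28 in replicate 2. Dis3l2, the nuclease that degrades the uridylated precursor, had 6 and 5.

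Other genes widely described as let-7 targets or as partners of the 7 genes were open as well. They were 28 of 28 in both libraries, beside the same 66.5% of all genes, and Ago2 was also in the let-7 pathway list. The median of the 28 was 10.5 distal peaks in replicate 1 and 9 in replicate 2, where all genes had 3 and 2. Mycn, a proto-oncogene of neural progenitors, had 85 and 73 distal peaks in a territory of 494 kb. Irs2, an adaptor of the insulin and insulin-like growth factor receptors, had 90 and 71 in 469 kb. Igf2, whose messenger RNA gave the Igf2bp genes their name, had 9 and 5 in 73.5 kb. Nras, a signalling GTPase, had an open promoter and 0 distal peaks in both libraries.

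For each of the 7 genes, the protein-coding gene with the most similar pattern was sought on 3 measures, the logarithm of distal peaks in each library and of territory. Lin28b was nearest to Lhx9, with 24 and 12 distal peaks in 121 kb, and Igf2bp3 to Neurod1, with 15 and 15 in 103 kb. Hmga2 was nearest to Uaca, with 47 and 44 in 330 kb, and Trim71 to Marveld3, with 12 and 15 in 60.9 kb. Igf2bp1 was nearest to Pla2g2c, Igf2bp2 to Slc45a4 and Lin28a to Tnfsfm13, each with the same distal counts in both libraries as its partner.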

How the data were processed

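Peaks and hotspots were deposited for each of the 2 libraries on its own, on mm10 per the labels. The authors' score of a peak is a whole number without a stated meaning. The deposited −log10 q-value of a hotspot ran from 1.30 up, with 100 as its top value. The aligner and caller were not given in the sources used here. Files hold no read counts, so the depth is unknown and no interval was computed. Per the labels both libraries were run on more than 1 sequencer model, and replicate 2 on an additional one.

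Rows at a repeated position were dropped, 45 from replicate 1 and 22 from replicate 2. The 54361 TSSs of protein-coding transcripts of 21853 genes in GENCODE vM21 were used, and TSSs of all transcripts of a gene were tried as the alternative, although the plan had listed these the other way round. Overlap meant 1 bp. Interval functions were tested on simulated data. Bases came from GRCm38 through pysam 0.24.0, and microRNAs and promoter windows from RefSeq tables of that assembly, where 6 of the 7 genes matched a promoter window. The genes, lists and motifs were chosen with earlier results of these data known. Named are all 7 genes, their 2 best shared distal peaks, their best promoter peaks, the 3 best unshared peaks and the genes of most similar pattern. Further peaks and list genes were named after their values were seen. Tools were Python 3.11.15, pandas 2.3.3 and numpy 2.4.6.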

Additional observations from a re-analysis of the deposited data

How the results depend on the processing

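Promoter peaks and promoter hotspots of the 7 genes were counted at 7 in both libraries under every alternative tried, except that Lin28b lost its promoter peak in replicate 2 with a window of 200 bp, which gives a mean of 6.5 genes. The mean number of distal peaks over both libraries was 119.5, and 110 and 129 with 1 library left out. It fell to 72.5 with the higher-scoring 50% of each list and to 62 with the nearest TSS sought among all annotated genes. Under that change the mean of Hmga2 fell to 7, against 45 with coding genes, and that of Igf2bp1 to 4, against 13.5, as more starts then compete for their peaks. The mean share of distal peaks found in both libraries was 67.9%, and 61.2% and 74.5% with 1 library left out. It was 79.7% with the higher-scoring 50% of each list and 58.2% when an overlap of 75 bp was required, and the cause was not tested. The summed count stayed within 1.5 times under the other alternatives, which included equal list lengths, a distance of 5 kb, a limit of 100 kb, hotspots in place of peaks and repeated rows kept. Single genes moved further. Over 5 kb from every TSS the mean was 3 for Lin28a, against 7.5, 11.5 for Lin28b, against 17.5, 7.5 for Trim71, against 13.5, and 8 for Igf2bp1, against 13.5. With hotspots it was 11 for Lin28b and 7.5 for Trim71. With the higher-scoring 50% of each list it was 4.5 for Lin28a, 7.5 for Lin28b, 27 for Hmga2 and 0.5 for Igf2bp2, against 7.5. Merging overlapping peaks of 1 list, added after the data had been seen, gave 112.5. No paired analysis was possible because the labels define 1 group. Limits are that scores have no stated meaning, depth is unknown, nearest-gene assignment is no measure of regulation, and cells of a mixed tissue cannot be told apart.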
